A study of Homo sapiens with 6 samples.

Results

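Transcripts of 10 genes were followed, namely ABHD5, the lipase ATGL (gene symbol PNPLA2) that ABHD5 activates, and the hydrolases and inhibitors that act beside them on neutral lipid. The genes were picked by symbol from the 27470 genes of the deposited count table, and all 10 were found. RNA came from the human line 22Rv1-ABHD5, made from prostate cancer cells that grow despite castration. It carries ABHD5 on a lentiviral vector, behind a promoter switched on by doxycycline (Dox). The labels call the groups control and ABHD5 overexpression, and the groups are named here without Dox (3 libraries) and with Dox (3 libraries), each cultured for 48 h. Cells of both groups carry the vector and went through the same selection with G418. The Dox dose of these libraries is not given in the sources used here. No parent cells given Dox were analysed here, so an effect of ABHD5 and an effect of Dox cannot be told apart.

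Triacylglycerol stored in lipid droplets is broken down in steps. ATGL removes the first fatty acid, hormone-sensitive lipase (gene symbol LIPE) acts mainly on the diacylglycerol that is left, and monoacylglycerol lipase (MGLL) splits the last ester bond. ABHD5, also called CGI-58, sits on the droplet bound to perilipins and turns ATGL on when it is released, while the small proteins G0S2 and HILPDA bind ATGL and inhibit it. PNPLA3 is a close relative of ATGL on lipid droplets and can take up ABHD5. ABHD6 hydrolyses monoacylglycerol at membranes, ABHD4 is the nearest relative of ABHD5 and acts on N-acyl phospholipids, and LIPA is the acid lipase that breaks down triacylglycerol and cholesteryl ester inside lysosomes.

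The members differ at the residue that carries out catalysis, which is why the stretch around it is shown. In a hydrolase this is a serine that lies between glycines, and ABHD5 has an asparagine in its place. Below are 57 coding bases of the GENCODE 44 transcripts on hg38, written 5′ to 3′ on the strand of the gene, with the codon of that residue in capitals. ABHD5 is shown first, beside its relative ABHD4, and then come the other hydrolases that were tested.
ABHD5: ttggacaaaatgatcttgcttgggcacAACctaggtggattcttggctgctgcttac
ABHD4: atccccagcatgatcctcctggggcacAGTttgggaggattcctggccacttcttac
PNPLA2: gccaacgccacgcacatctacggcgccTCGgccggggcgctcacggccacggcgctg
LIPE: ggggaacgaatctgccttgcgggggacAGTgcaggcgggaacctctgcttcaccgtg
MGLL: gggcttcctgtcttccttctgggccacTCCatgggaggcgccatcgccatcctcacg
ABHD6: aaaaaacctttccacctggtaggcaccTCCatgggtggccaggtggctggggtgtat
LIPA: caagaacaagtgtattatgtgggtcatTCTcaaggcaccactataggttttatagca

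The ABHD5 stretch lies at chr3:43702511-43702567 in exon 3 and its asparagine codon AAC is codon 153 of 349. In ABHD4 the stretch at chr14:22603686-22603742, also in exon 3, has the serine codon AGT at codon 146 of 342. Over the whole translated length, ABHD5 and ABHD4 were identical at 188 of 342 aligned positions (55%), against 20.9% for ABHD5 and ABHD6. The PNPLA2 stretch lies at chr11:819830-819886 in exon 2, with the serine codon TCG at codon 47 of 504. The PNPLA3 protein was identical to that of PNPLA2 at 44.5% of the aligned positions. A serine between glycines was found in each of the other 5 hydrolases and in neither inhibitor, whose coding sequences are short, at 103 codons for G0S2 and 63 for HILPDA. In MGLL and LIPA the pattern was found at 2 places, and the stretch around the known catalytic serine is shown, which crosses an exon junction in both.

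With Dox, 4 members rose, which were ABHD5, PNPLA2, MGLL and LIPA, and none fell. Each rose by 1.60-fold to 1.92-fold, and in each the 3 libraries with Dox all lay above the 3 without. LIPE, ABHD6 and ABHD4 overlapped between the groups, and HILPDA was lower in every library with Dox but did not pass the test. Of the 10 members, 8 passed the low-count filter, and G0S2 and PNPLA3 were close to absent. Over all 12233 genes tested with edgeR's quasi-likelihood test, 25.5% had an adjusted p (Benjamini-Hochberg) under 0.05, with 11.9% higher and 13.7% lower with Dox. Among the 8 members tested, 4 were called and all 4 were higher, with a median log2 fold change of 0.54 against 0.016 over all genes. Every library with Dox lay above every library without for 19% of all genes and below for 20.5%, and among the members this held for 4 and 1. These counts and the median include ABHD5, the gene that the vector was built to switch on with Dox. They are a description, since the members were chosen with results of these data known.

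**Figure D1:**
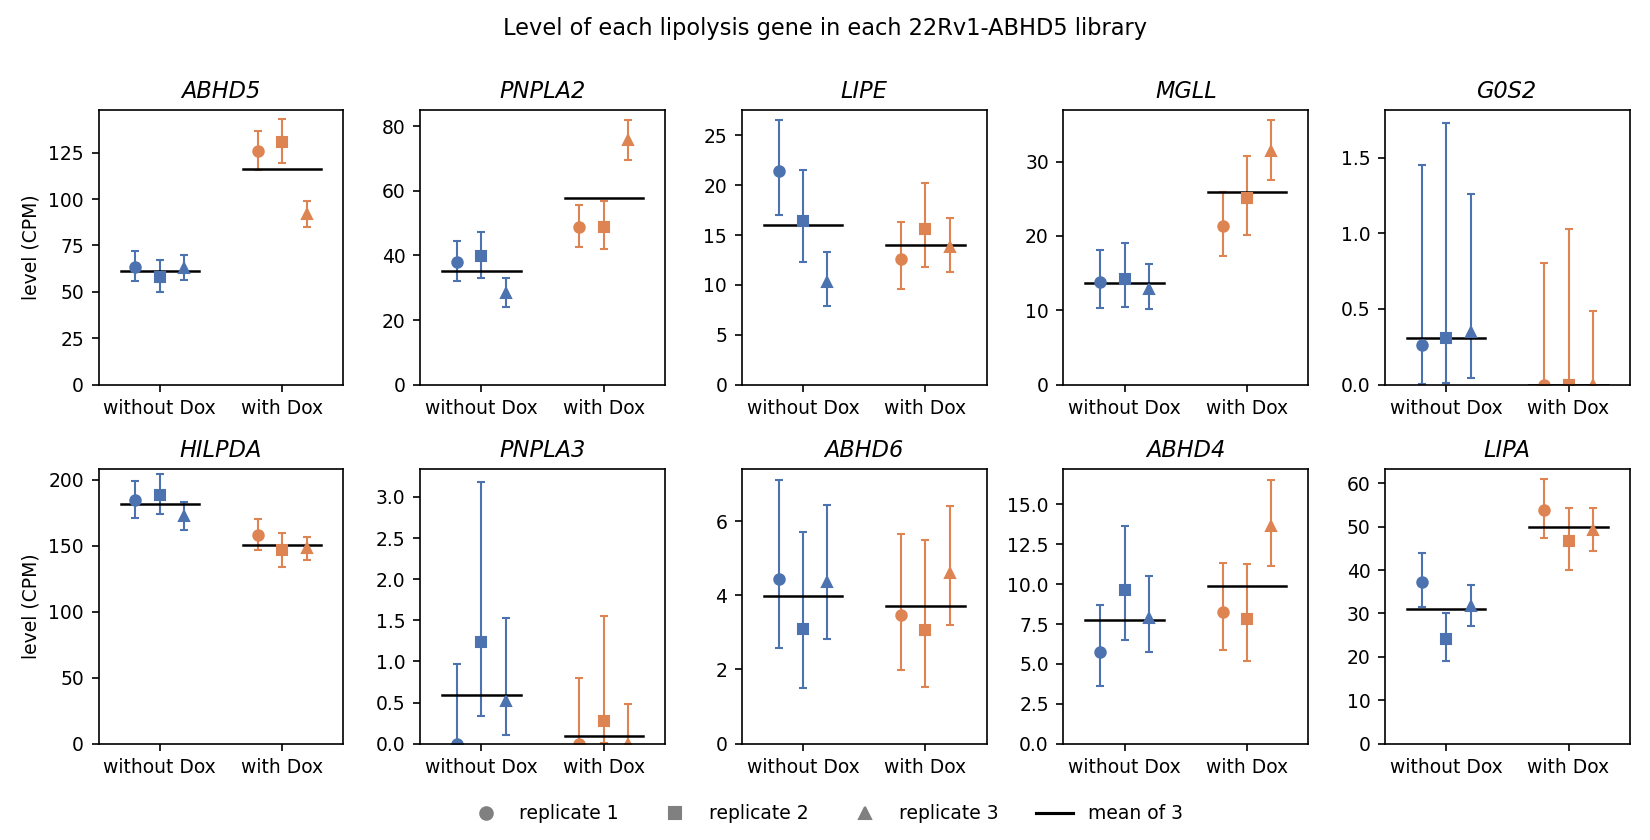
Level of each of the 10 members in each library, in CPM after TMM normalization on a linear axis from 0, with replicates 1 to 3 as circle, square and triangle, without Dox in blue and with Dox in orange. Error bars are exact 95% Poisson intervals of the count and black lines are means of 3. The groups are apart for ABHD5, PNPLA2, MGLL, LIPA and HILPDA, and G0S2 and PNPLA3 reach at most 1.24 CPM.

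Levels are given in CPM, the count of a gene divided by the library's total as corrected by its TMM factor. Each transcript yields 1 tag at its 3ʹ end. Levels are compared here mainly between libraries, as are the ratio and the sums of genes given below. Libraries held 3394672 to 5988151 counts on genes without Dox and 3460471 to 7271771 with Dox, and the largest library was replicate 3 in both groups. The share of listed reads outside any gene was 32.5% to 34.6% in the group without Dox and 35.6% to 39.5% in the group with Dox. In bulk RNA, a change in all cells and a change in part of the cells cannot be told apart.

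ABHD5, the induced gene, spans chr3:43690108-43734371 on the plus strand. Without Dox its level was 63.5, 58.0 and 62.8 CPM in replicates 1 to 3, from 243, 187 and 360 counts. With Dox it was 126, 131 and 91.7 CPM, from 579, 470 and 698 counts. The groups did not overlap, and replicate 3 with Dox stood lower than its 2 fellows. Its counting interval of 85.0 to 98.7 CPM lay clear of theirs, which were 115.9 to 136.6 and 119.2 to 143.2 CPM. Relative to the mean without Dox, the rise was 2.05-fold, 2.13-fold and 1.49-fold in replicates 1, 2 and 3. The means were 61.4 ± 3.0 CPM (SD, n = 3) and 116.1 ± 21.3 CPM (SD, n = 3), a log2 fold change of 0.91 (SE 0.15, 95% interval 0.60 to 1.22, edgeR adjusted p = 1.978e-04). A transgene without the native 3ʹ end of ABHD5 would be counted only in part or not at all, and the counts do not separate it from the native gene. ANO10, which overlaps the 5ʹ end of ABHD5 on the opposite strand, had a log2 fold change of -0.06 (adjusted p = 0.860, edgeR).

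PNPLA2 encodes ATGL, which carries out the first step of lipolysis. The gene spans chr11:818914-825573 on the plus strand. Its level was 37.9, 39.7 and 28.3 CPM without Dox, from 145, 128 and 162 counts. With Dox it was 48.9, 49.0 and 75.7 CPM, from 225, 176 and 576 counts. Replicates 1 and 2 with Dox lay close together and replicate 3 lay well above them, whereas for ABHD5 replicate 3 was the lowest with Dox. The means were 35.3 ± 6.13 and 57.9 ± 15.4 CPM (SD, n = 3 each), a 1.67-fold rise (log2 fold change 0.74, SE 0.19, 95% interval 0.35 to 1.14, edgeR adjusted p = 0.00752). Leaving out replicate 3 with Dox lowered the log2 fold change to 0.49 (adjusted p = 0.0487), and leaving out replicate 3 without Dox lowered it to 0.59 (adjusted p = 0.0468). CRACR2B, which encodes a calcium channel regulator and starts 571 bases past the 3ʹ end of PNPLA2 on the same strand, fell (58.4 ± 6.68 to 35.7 ± 7.89 CPM, SD, n = 3 each, log2 fold change -0.69, edgeR adjusted p = 0.00588). A long noncoding RNA lies across the 3ʹ end of PNPLA2 on the opposite strand, and the strand setting of the counting is not given in the sources used here.

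The proportion of ABHD5 to PNPLA2 transcripts was compared within each library, as the ratio of both raw counts, which no scaling of the library can move. Without Dox the ratio was 1.68, 1.46 and 2.22 in replicates 1 to 3. The ratio with Dox was 2.57, 2.67 and 1.21. Replicates 1 and 2 with Dox had the highest ratios of all 6 libraries and replicate 3 with Dox had the lowest. The mean log2 ratio was 0.81 ± 0.31 without Dox and 1.02 ± 0.64 with Dox (SD, n = 3 each), a difference of 0.20 (p = 0.8, exact permutation test, two-sided, where 20 splits allow no p below 0.1). The design is too small to call a change of the ratio at any size. With a library without Dox left out, the difference was 0.17, 0.071 and 0.37 for replicates 1, 2 and 3, and with a library with Dox left out it was 0.033, 0.0058 and 0.58.

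MGLL, which frees the last fatty acid, lies on the minus strand at chr3:127689062-128052190. Without Dox it was at 13.8, 14.3 and 12.9 CPM, from 53, 46 and 74 counts. With Dox it was at 21.3, 25.0 and 31.4 CPM, from 98, 90 and 239 counts. The libraries without Dox lay close together, and replicate 3 with Dox was again the highest. The mean went from 13.7 ± 0.690 to 25.9 ± 5.10 CPM (SD, n = 3 each), which is 1.92-fold (log2 fold change 0.94, SE 0.20, 95% interval 0.52 to 1.36, edgeR adjusted p = 0.00203). Over 15 other ways of processing the counts its log2 fold change ranged from 0.76 to 1.06. SEC61A1 and KBTBD12 overlap MGLL on the opposite strand, far from its 3ʹ end. SEC61A1, a subunit of the protein channel of the endoplasmic reticulum, had a log2 fold change of -0.02 (adjusted p = 0.930, edgeR), and KBTBD12 had 5 counts in all without Dox and 9 with Dox.

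LIPE, the hormone-sensitive lipase of the second step, spans chr19:42401514-42427388 on the minus strand and gave no call in either direction. Its level was 21.4, 16.4 and 10.3 CPM without Dox, from 82, 53 and 59 counts. In the libraries with Dox it was 12.6, 15.6 and 13.8 CPM, from 58, 56 and 105 counts. All libraries with Dox lay inside the range of those without, which was set by replicate 1 at the top and replicate 3 at the bottom. The log2 fold change was -0.18 (95% interval -0.70 to 0.35, edgeR adjusted p = 0.648), and it turned to 0.082 (adjusted p = 0.871) with replicate 1 without Dox left out. An antisense gene, LIPE-AS1, lies across the 3ʹ end of LIPE and had 15 counts in all without Dox and 12 with Dox.

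ABHD6 (chr3:58237532-58295693, plus strand), a further monoacylglycerol hydrolase, rested on 10 to 35 counts a library. Its level was 4.44, 3.10 and 4.36 CPM without Dox and 3.48, 3.06 and 4.60 CPM with Dox. The groups covered nearly the same range, with replicate 2 the lowest in both. The 95% interval of the log2 fold change, -0.80 to 0.65, leaves room for a change in either direction (log2 fold change -0.08, edgeR adjusted p = 0.900).

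Of the inhibitors of ATGL, HILPDA was measured with the most counts of any member and G0S2 with nearly none. HILPDA, which is induced by hypoxia and by fatty acids in many cells, lies at chr7:128455849-128458418 on the plus strand. Without Dox it was at 184, 189 and 172 CPM, from 706, 608 and 986 counts. With Dox it was at 158, 146 and 148 CPM, from 727, 526 and 1125 counts. Every library with Dox was below every library without, as for 20.5% of all genes. The means were 181.7 ± 8.55 and 150.7 ± 6.40 CPM (SD, n = 3 each), with a log2 fold change of -0.27 (95% interval -0.52 to -0.019, unadjusted p = 0.0363, adjusted p = 0.108, edgeR), so the difference did not pass the adjusted threshold. With library totals alone in place of TMM factors it was -0.15, a scaling that moved the median of all genes from 0.016 to 0.138. HILPDA overlaps long noncoding genes on its own strand, HILPDA-AS1 among them.

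G0S2 (chr1:209675412-209676390, plus strand), the inhibitor best known from fat and liver, had 1, 1 and 2 counts without Dox and 0, 0 and 0 with Dox. PNPLA3 (chr22:43923792-43964488, plus strand) had 0, 4 and 3 counts without Dox and 0, 1 and 0 with Dox. The limit that a count of 0 allows is 3 counts, or 0.394 to 0.930 CPM depending on the library. G0S2 was under it in every library, and PNPLA3 was above it in replicate 2 without Dox alone. No fold change is given for either gene, and neither passed the threshold when the filter was dropped (adjusted p = 0.226 and 0.241, edgeR). An antisense gene, HSD11B1-AS1, lies across G0S2 and was not analysed here. SAMM50, which encodes a mitochondrial outer membrane protein and overlaps PNPLA3 on the same strand, had a log2 fold change of -0.10 (adjusted p = 0.704, edgeR).

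ABHD4 (chr14:22598290-22612963, plus strand), the relative of ABHD5 that kept the serine, had levels of 5.75, 9.61 and 7.86 CPM without Dox, from 22, 31 and 45 counts. With Dox the levels were 8.26, 7.79 and 13.7 CPM, from 38, 28 and 104 counts. Replicate 3 with Dox stood above all others, and the other 5 libraries mixed. The log2 fold change was 0.41 (SE 0.29, 95% interval -0.20 to 1.01, edgeR adjusted p = 0.326), and 0.064 without replicate 3 with Dox.

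LIPA, the lysosomal acid lipase, lies at chr10:89213569-89414557 on the minus strand. Its level was 37.4, 24.2 and 31.6 CPM without Dox, from 143, 78 and 181 counts. In the group with Dox it was 53.9, 46.8 and 49.1 CPM, from 248, 168 and 374 counts. Unlike PNPLA2 and MGLL, the libraries with Dox lay close together here, and replicate 1 was the highest. The mean rose 1.60-fold from 31.0 ± 6.60 to 49.9 ± 3.66 CPM (SD, n = 3 each; log2 fold change 0.68, SE 0.17, 95% interval 0.33 to 1.03, edgeR adjusted p = 0.00585). The interferon-induced gene IFIT2 overlaps the LIPA gene on the opposite strand, 70122 bases from the 3ʹ end of LIPA, and had 5 counts in all without Dox and 29 with Dox. Farther from that end on the same opposite strand lie IFIT3, with 11 and 12 counts, IFIT1B, with 0 and 0, and IFIT1, with 0 and 10.

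**Figure D2:**
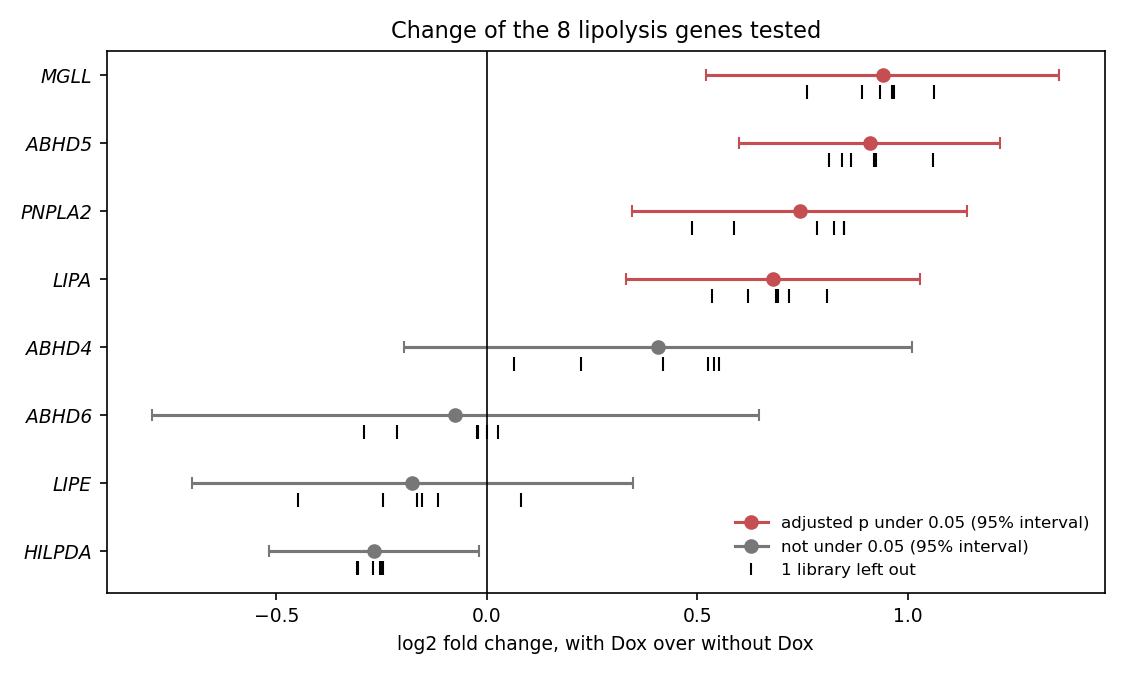
Log2 fold change with Dox over without Dox (x axis) of the 8 members tested by edgeR's quasi-likelihood test, with 95% intervals, in red where the adjusted p was under 0.05. Black ticks give the value with each of the 6 libraries left out, and for MGLL, ABHD5, PNPLA2 and LIPA all ticks lie to the right of 0, from 0.49 for PNPLA2 to 1.06 for ABHD5 and MGLL.

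The 4 calls held under each of 15 other ways of processing the counts, which were other scalings, filters and tests, a replicate block, the deposited normalized values and each library left out. Across them the log2 fold change ranged from 0.81 to 1.06 for ABHD5, from 0.49 to 0.87 for PNPLA2 and from 0.53 to 0.81 for LIPA. The largest adjusted p was 0.00316 for ABHD5, 0.0487 for PNPLA2, 0.0132 for MGLL and 0.0358 for LIPA.

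The libraries with Dox did not order the members alike. Replicate 3 with Dox had the highest level of the 3 for PNPLA2, MGLL, ABHD4 and ABHD6 and the lowest for ABHD5. It was the highest of the 3 for 38.4% of all genes tested and the lowest for 34.2%. Replicate 1 was the highest for HILPDA and LIPA, and replicate 2 for ABHD5 and LIPE. The summed level of the lipases PNPLA2, LIPE and MGLL was 73.1, 70.4 and 51.5 CPM without Dox and 82.9, 89.6 and 120.8 CPM with Dox, so the library with the least ABHD5 of the Dox group had the highest sum. The summed level of G0S2 and HILPDA was 172.5 to 188.9 CPM without Dox and 146.4 to 158.1 CPM with Dox, nearly all of it HILPDA.

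**Figure D3:**
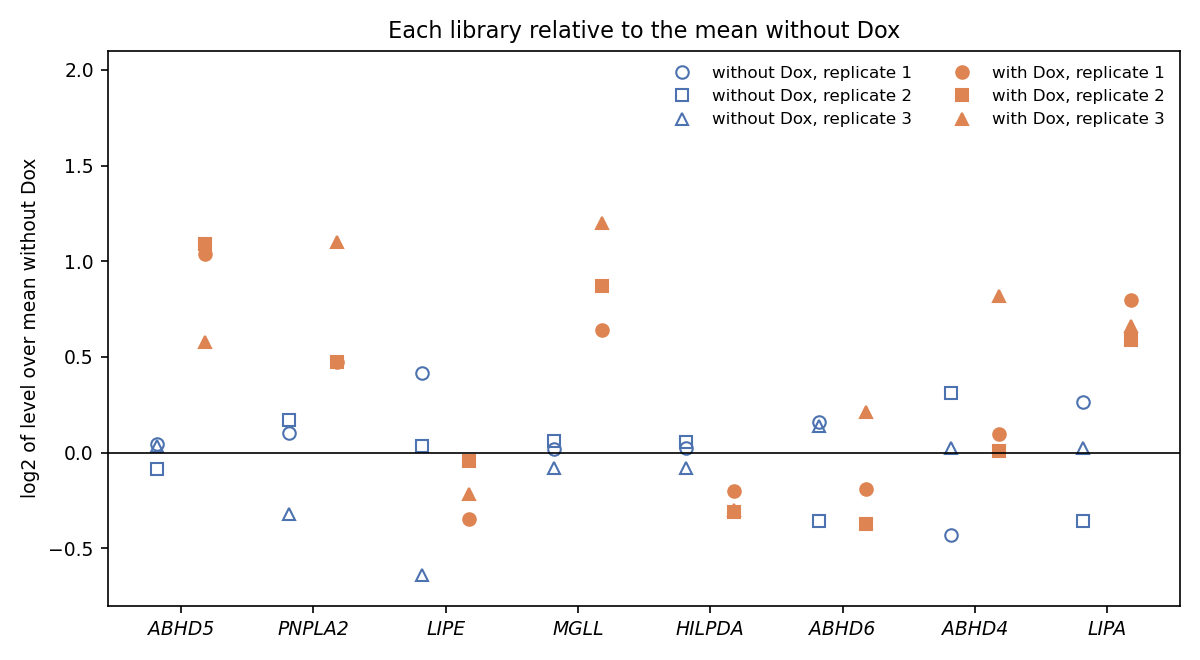
Log2 of the level of each tested member in each library over the mean without Dox (y axis), with open blue symbols without Dox and filled orange symbols with Dox, and replicates 1 to 3 as circle, square and triangle. The orange triangle, replicate 3 with Dox, is the lowest of the Dox group for ABHD5 (1.49-fold over the mean without Dox) and the highest for PNPLA2 (2.14-fold), MGLL (2.30-fold), ABHD4 and ABHD6.

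Around the members, 100 further genes were compiled in 5 lists, of which 62 were tested and 22 (35.5%) called, 11 higher and 11 lower with Dox, against 25.5% of all genes. With replicate 1 without Dox left out, 13 were called. Of 18 other genes of the ABHD family, 16 were tested, 2 were higher and 4 lower, with a median log2 fold change of 0.15. Leaving out replicate 3 with Dox turned that median to -0.00040, and leaving out replicate 1 or 3 of the group without Dox gave 0.079 or 0.0063. The smallest adjusted p among them was that of ABHD17C, which removes palmitate from proteins and which fell from 120.5 ± 20 to 59.3 ± 8.80 CPM (SD, n = 3 each, log2 fold change -1.02, edgeR adjusted p = 7.942e-05). ABHD2, a hydrolase of monoacylglycerol that responds to progesterone in sperm, fell by 0.57 on the log2 scale (adjusted p = 0.00270, edgeR). ABHD11, a mitochondrial hydrolase, fell by 0.46 (adjusted p = 0.0160), and its call was lost with library totals alone (log2 fold change -0.34, adjusted p = 0.0649) and with replicate 1 or 2 without Dox or replicate 1 with Dox left out (-0.45, -0.37 and -0.43). ABHD14A, named after its values were seen, was at -1.33 (adjusted p = 0.0211, edgeR), and its call was lost without replicate 3 without Dox (-1.16) or replicate 1 (-1.25) or 3 (-1.09) with Dox, and in DESeq2 (adjusted p = 0.0555). ABHD3, a phospholipase of medium-chain phosphatidylcholine, rose by 1.11 on the log2 scale (adjusted p = 0.0126, edgeR), with groups that overlapped. ABHD14B, a protein deacetylase, rose by 0.50 (adjusted p = 0.0129, edgeR). Neither kept its call without replicate 1 without Dox (log2 fold change 1.02 and 0.44) or without replicate 3 with Dox (0.72 and 0.41).

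Of 6 other genes of the PNPLA family, 4 were tested, 2 were higher and none lower. PNPLA6, a lysophospholipase of the endoplasmic reticulum, went from 9.88 ± 1.42 to 17.8 ± 4.60 CPM (SD, n = 3 each, log2 fold change 0.88, edgeR adjusted p = 0.0109). The call was lost with replicate 1 without Dox (0.76) or replicate 3 with Dox (0.63) left out. PNPLA8, a calcium-independent phospholipase of mitochondria and peroxisomes, had a log2 fold change of 0.39 (adjusted p = 0.0334, edgeR). Its call was lost with any library except replicate 3 without Dox left out (0.34 to 0.42) and without the low-count filter (adjusted p = 0.0653). PNPLA1, which works with ABHD5 in skin, and PNPLA5 had no count in any library.

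Of 28 other hydrolases of acylglycerols and cholesteryl esters, 10 were tested and 13 had no count in any library, among them the pancreatic and gastric lipases PNLIP and LIPF. None was higher and 2 were lower, with a median log2 fold change of 0.23, or 0.13 without replicate 2 without Dox. With library totals alone as the scaling, 3 of these genes were called higher and 1 lower, and with upper-quartile factors 2 were higher and 1 lower. Without replicate 3 with Dox, 1 was higher and 1 lower. LIPG, the endothelial lipase that acts on lipoprotein phospholipid, had 15, 10 and 28 counts without Dox and 6, 2 and 10 with Dox. It fell by 1.83 on the log2 scale (SE 0.43, edgeR adjusted p = 0.00470). NCEH1, a cholesteryl ester hydrolase, had a log2 fold change of -0.58 close to the threshold (adjusted p = 0.0482, edgeR) and was called in 5 of 15 other settings. That call was lost with replicate 1 (-0.57) or 3 (-0.49) without Dox, or replicate 2 (-0.59) or 3 (-0.45) with Dox, left out. LPL, the lipoprotein lipase, was not tested at 2 counts without Dox and 7 with Dox.

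The control of lipolysis by hormones runs from adrenergic receptors through adenylyl cyclase to protein kinase A, which phosphorylates perilipins and LIPE. Of 34 genes of this route and of the proteins that regulate ATGL, 19 were tested, 3 were higher and 3 lower, with a median log2 fold change of 0.08. The median was 0.18 without replicate 3 without Dox, 0.047 without replicate 1 with Dox, 0.0078 without replicate 3 with Dox and -0.0020 without the low-count filter. ADRA2A, the receptor that inhibits adenylyl cyclase and holds lipolysis back, had 48, 39 and 69 counts without Dox and 8, 5 and 15 with Dox. Its level fell from 12.2 ± 0.271 to 1.70 ± 0.291 CPM (SD, n = 3 each, log2 fold change -2.78, SE 0.31, edgeR adjusted p = 3.436e-06), with groups far apart. ADRB1, a receptor that stimulates adenylyl cyclase, fell by 0.91 on the log2 scale (adjusted p = 0.0209, edgeR), a call lost without replicate 2 without Dox (-0.83) or replicate 1 with Dox (-0.73). GNAS, the stimulating G protein subunit, rose from 295.3 ± 25.0 to 493.1 ± 38.5 CPM (SD, n = 3 each, log2 fold change 0.74, edgeR adjusted p = 2.998e-04). PRKACB, a catalytic subunit of protein kinase A, rose by 0.61 on the log2 scale (adjusted p = 0.0140, edgeR), a call lost without replicate 1 with Dox (0.52). PRKAR2A, a regulatory subunit of the kinase, was at -0.35 (adjusted p = 0.0433, edgeR) and kept its call in 7 of 15 other settings. It was lost with any library except replicate 3 without Dox left out (-0.37 to -0.29). UBXN8, a membrane protein of the endoplasmic reticulum that helps in protein degradation, rose by 0.72 (adjusted p = 0.00268, edgeR). It counts among the 3 higher genes here but is not the ATGL regulator UBXD8, which is encoded by FAF2 of the same list. FAF2 had a log2 fold change of -0.08 (adjusted p = 0.695, edgeR).

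Genes of this route that mark fat cells were near 0. PLIN1, the perilipin that binds ABHD5 in adipocytes, had 1 count in each group, and CIDEC had 1 count without Dox and 0 with Dox. PLIN5, the perilipin of oxidative tissues that also binds ABHD5, was tested and had a log2 fold change of 0.36 (adjusted p = 0.378, edgeR). AQP3, a glycerol channel, did not pass the filter but had 53, 7 and 80 counts without Dox and 3, 2 and 6 with Dox. It was named after its values were seen.

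**Figure D4:**
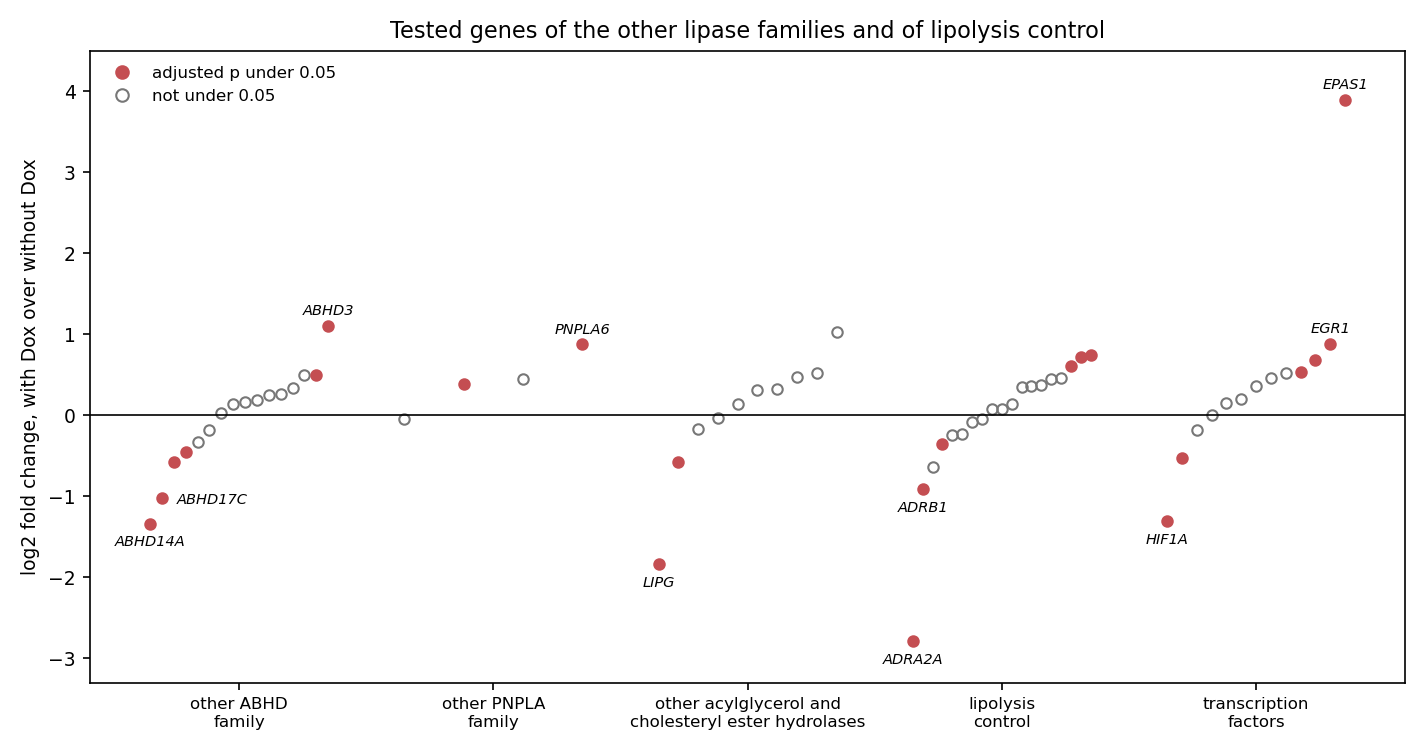
Log2 fold change with Dox over without Dox (y axis) of the 62 tested genes of 5 lists around the members, ordered within each list by fold change, with filled red points for an adjusted p under 0.05 (edgeR) and open points otherwise. Named points lie beyond 0.8 in either direction, and the 22 filled points are split evenly, 11 above and 11 below 0, with EPAS1 (3.90) and ADRA2A (-2.78) at the ends.

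Of 14 transcription factors known to act on members in other cells, 13 were tested, 4 were higher and 2 lower, with a median log2 fold change of 0.36, or 0.22 without replicate 1 with Dox. The hypoxia factors, which can induce HILPDA, moved in opposite directions. EPAS1 had 7, 2 and 5 counts without Dox and 62, 52 and 163 with Dox, a log2 fold change of 3.90 (SE 0.37, edgeR adjusted p = 6.299e-07). HIF1A fell from 289.4 ± 23.8 to 117.8 ± 27.9 CPM (SD, n = 3 each, log2 fold change -1.30, edgeR adjusted p = 7.591e-06). EGR1, a repressor of PNPLA2 in fat cells, rose by 0.89 on the log2 scale (adjusted p = 0.00103, edgeR). MLXIPL, the glucose-responsive factor, had a log2 fold change of 0.68 (adjusted p = 0.0332, edgeR) with overlapping groups, and leaving out any library except replicate 1 with Dox lost the call (0.54 to 0.75), as did limma on the deposited signal (adjusted p = 0.0517 and 0.0524). NR1H2, a sterol receptor named after its values were seen, was at 0.53 (adjusted p = 0.0417, edgeR), a call lost without replicate 2 (0.53) or 3 (0.41) without Dox or replicate 1 (0.54) or 3 (0.36) with Dox. DESeq2 (adjusted p = 0.0575) and limma on the deposited signal (0.0640 and 0.0645) did not call it either. FOXO1, which acts on PNPLA2, had a log2 fold change of -0.52 (adjusted p = 0.0428, edgeR). That call was lost with any library without Dox or replicate 1 with Dox left out (-0.57 to -0.38). It was also lost with upper-quartile factors (adjusted p = 0.0686), library totals alone (0.114), the filter of 10 counts (0.0556) and DESeq2 (0.0634), so that it held in 7 of 15 other settings. The messenger RNA of PPARG, the main factor of fat cells, had no count in any library.

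The promoter table of RefSeq (GRCh38.p14) held 7 of the 10 members, all but MGLL, HILPDA and PNPLA3. The 250 bases before the start of each were searched on both strands for the E-box CACGTG, for ACGTG, the core of the hypoxia response element, which the E-box also holds, and for the FOXO element GTAAACA. None of the 7 held any of them. Over 35116 promoter entries the shares were 6.34%, 18.5% and 2.98%.

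By Pearson's r of log2 CPM over the 6 libraries, among 9419 genes with a mean of at least 50 counts, the genes most like ABHD5 were KIAA0368 (r = 0.997), NBR1 (0.996), ERLEC1 (0.991), ABHD18 (0.991) and CUX1 (0.990). Those most unlike it were RPL39L (-0.999), SNRPB (-0.996), PAQR4 (-0.996), PDIA5 (-0.995) and PXMP2 (-0.994). Another set was most like PNPLA2, namely PCSK1N (r = 0.995), EEF1A2 (0.991), NSMF (0.990), OAZ2 (0.989) and FLNA (0.988). Most unlike PNPLA2 were FAM35A (-0.997), CCDC88A (-0.996), YOD1 (-0.995), TFAM (-0.995) and BEND3 (-0.992). These values describe 6 points that fall into 2 groups, picked as the extremes of 9419 genes, and carry no test.

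Markers of prostate luminal epithelium were present in every library, with a summed level of 654.3 to 727.9 CPM without Dox and 494.8 to 585.8 CPM with Dox. Of 8 markers, 4 were lower with Dox (KLK2, TMPRSS2, KRT18 and EPCAM) and none higher, against 13.7% and 11.9% of all genes. KLK3, HOXB13, FOLH1 and KRT8 were not called. The call for EPCAM was lost without replicate 3 without Dox (-0.44). None of 8 adipocyte markers passed the filter, with sums of 0.524 to 0.784 CPM without Dox and 0.525 to 0.835 CPM with Dox, and ADIPOQ and RETN had no count. Sums of 8 fibroblast and endothelium markers were 2.17 to 4.18 and 3.62 to 7.62 CPM, with PDGFRB, PECAM1, CDH5 and VWF at 0 counts. COL1A1 was the 1 marker of that list tested (log2 fold change 1.22, adjusted p = 0.0313, edgeR), and leaving out replicate 2 or 3 without Dox or replicate 1 or 3 with Dox lost its call (0.87 to 1.27), as did DESeq2 (adjusted p = 0.0617) and limma on the deposited signal (0.0591 and 0.0609). Sums of 7 leukocyte markers were 0.784 to 2.79 CPM without Dox and 1.30 to 1.67 CPM with Dox, with CD3E at 0 counts, and none passed the filter. The part of the fall of those 4 luminal markers, or of the larger share of reads on no gene with Dox, in the changes of the members was not tested.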

How the data were processed

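RNA of 22Rv1-ABHD5 cells was prepared as 3ʹ mRNA libraries, 3 without Dox and 3 with Dox. The labels name the FWD kit and the paper's methods the REV kit. The authors aligned single-end reads of 100 bases to hg38 using STAR. They deposited a table of raw counts, by gene symbol, over all 6 libraries. HTSeq, edgeR, FastQC and CASAVA 1.8.2 are named in the submitters' processing notes; the annotation, use of strand and their versions are not given in the sources used here. The authors also deposited, per library, a normalized signal that is not whole and whose method is not given; it served as an alternative, with 27 rows left out whose names differ.

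The table's 5 rows of reads without a gene entered neither the library sizes nor the tests. Counts were fitted in edgeR 4.0.16 (R 4.3.3) with filterByExpr (minimum count 10), TMM and the quasi-likelihood test over 12233 genes, at a Benjamini-Hochberg adjusted p under 0.05. Standard errors are the log2 fold change over the root of F. Intervals of single counts are exact Poisson intervals at 95%; reads carry no molecular identifiers, so they cover counting error only. Alternatives were DESeq2 1.42.0, its size factors, upper-quartile factors, library totals alone, no filter, 10 counts in every library, a replicate block, limma 3.58.1 on the deposited signal (pseudocounts 1 and 0.5) and each library left out. Every pair of replicates differed beyond sampling noise (chi-square per degree of freedom 4.07 to 11.3). Nothing says that replicates are separate cultures, so p-values measure the spread between these libraries. The fit was tested on simulated data.

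Members and lists were chosen with earlier results of these data known. Named were all 10 members; in each list up to 3 genes of smallest adjusted p in each direction; the 5 genes most and least like ABHD5 and PNPLA2; and genes with a symbol that overlap a member or lie within 5000 bases of its 3ʹ end, pseudogenes left out. PLIN1, CIDEC, PLIN5, FAF2, LPL, PNLIP, LIPF, ABHD14A, NR1H2, PNPLA1, PNPLA5, PPARG and AQP3 are outside this rule. Coordinates are from GENCODE 44. A few marker genes are not reported here.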

Additional observations from a re-analysis of the deposited data

How the results depend on the processing

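The 4 member calls held under all 15 alternatives. LIPE ranged from -0.45 to 0.082 with a library left out, turning positive without replicate 1 without Dox. ABHD6 ranged from -0.29 to 0.026, turning positive without replicate 2 with Dox, and was 0.047 with library totals alone. Neither gene was called in any setting, and the cause of the turns was not tested. Between 13 and 21 of the list genes were called with a library left out, against 22, and 13 to 24 over all alternatives. Genes called in all numbered 2181 to 3537, against 3125. Higher genes were 46.4% of the calls with TMM, 55.6% with upper-quartile factors and 65.7% with library totals alone, where the median of all genes moved from 0.016 to 0.138. The difference in the ABHD5 to PNPLA2 ratio was 0.0058 to 0.58 on the log2 scale with a library left out.

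With the replicate number as a block, 3537 genes were called, ABHD5 was at 0.89 and PNPLA2 at 0.73, and no member call changed. Deviations of same-numbered libraries correlated at -0.0096, 0.226 and 0.0855, and only the libraries numbered 2 correlated best with each other. So few correlations cannot decide whether same-numbered libraries were handled together, and the sources used here do not say. Depth limits ABHD6, at 10 to 35 counts a library, and G0S2 and PNPLA3, at or near the limit of 3 counts.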
